A study of Mus musculus with 23 samples.

Results

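Aminoacyl-tRNA synthetases are the enzymes that load each amino acid onto its transfer RNA, the step that makes amino acids usable by the ribosome. The 36 genes described here were taken from a list by symbol, and each was found by its Ensembl identifier among the 38293 genes of the count files. All 36 passed the filter on low counts, among 16087 genes tested. The list holds 20 genes named without the suffix 2, which serve the cytosol, and 16 genes with the suffix 2, which serve mitochondria. Gars and Kars are known to serve both compartments from 1 gene and stand here with the cytosolic list.

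The cells were primary astrocytes, the star-shaped support cells of the brain, from whole neocortex of mice at postnatal day 3. The strains crossed were BALB/c+C57BL/6 with 129/OLa+129/Sv+. Cells grew for 7 days, were stated to be more than 95% astrocytes, and spent 24 h in 0.1% serum deprived of thyroid hormone, in all groups. The groups were T3 for 6 h (4 libraries), T3 for 24 h (3), the compound labelled CHX with T3 for 6 h (4), CHX alone for 6 h (4), 6 h control (4) and 24 h control (4). T3, triiodothyronine, is the active thyroid hormone and was given at 10 nM. CHX was given at 8 µg/ml, 30 min before T3, and is read here as cycloheximide, which blocks the cytosolic ribosome. The series set out to describe the genomic response of these cells to T3.

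In the cytosol, 8 of the listed enzymes (Eprs, Iars, Lars, Mars1, Qars, Rars, Kars and Dars) sit in the multisynthetase complex, held together by the scaffold proteins Aimp1, Aimp2 and Eef1e1. Mitochondria translate their own small genome with a separate set of enzymes, which are encoded in the nucleus, made in the cytosol and imported. Many cytosolic synthetase genes are known targets of ATF4, the transcription factor of the amino acid response, which is induced when amino acids run short or protein folding fails. Mitochondrial synthetases are best known in the brain because mutations in them cause inherited disorders of white matter and of neurons.

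Gene counts per library ran from 13843040 to 22997873, and the 36 genes together held 40820 to 60983 of them. Alignments that were not unique made up 30.7 to 32.9% of the count lines in the 8 CHX libraries and 36.2 to 42.3% in the other 15. The 8 astrocyte markers (Gfap, Aqp4, Slc1a2 and others) were read in every library, with sums of 6516 to 10330 CPM (counts of a gene per 1000000 scaled counts of its library). The sums were 12.8 to 41.0 CPM for 6 microglial markers, 448 to 885 CPM for 8 oligodendrocyte-lineage markers, 108 to 193 CPM for 6 neuronal markers and 173 to 465 CPM for 7 vascular and meningeal markers. Lane followed group in part: all 6 h T3 and 6 h control libraries were on lane 5, all CHX plus T3 and 24 h control libraries on lane 6. Of the CHX libraries, 3 were on lane 5 and 1 on lane 6, and of the 24 h T3 libraries 2 were on lane 6 and 1 on lane 7.

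Set on a scale per kilobase of annotated exon, the cytosolic genes stood above the mitochondrial genes. In 6 h control cells the median was 19.9 CPM per kb over the 20 cytosolic genes and 3.29 CPM per kb over the 15 mitochondrial genes other than Lars2. Nars, the asparagine enzyme, was highest at 43.7 ± 0.9 CPM per kb (SD, n = 4), followed by Gars at 39.1 ± 1.6, Kars at 37.8 ± 0.4 and Hars at 36.5 ± 2.7. Gars, Kars and Hars, the glycine, lysine and histidine enzymes, each differed from the next in that order by less than the larger of the SDs. Cars, the cysteine enzyme, was the lowest of the cytosolic list in all 6 groups, with means of 5.06 CPM per kb in CHX plus T3 cells to 8.28 CPM per kb in 6 h T3 cells.

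Among the mitochondrial genes, the isoleucine enzyme Iars2 had 12.9 ± 0.6 CPM per kb and the histidine enzyme Hars2 10.3 ± 0.6 CPM per kb in 6 h control cells (SD, n = 4). Mars2, the methionine enzyme, was the lowest of the 16 in all 6 groups, at 0.726 to 1.00 CPM per kb. The scale uses every annotated exon of a gene, so a gene with long rarely used exons is set low on it. Dars, the aspartate enzyme, took the top place of the cytosolic list at 24 h, with 43.5 CPM per kb in T3 cells and 40.2 CPM per kb in control cells. Summed over the list, cytosolic genes held 2151 ± 120 CPM in 24 h T3 cells (n = 3), 2234 ± 44 in 6 h T3, 2242 ± 33 in CHX plus T3, 2289 ± 36 in CHX, 2202 ± 57 in 6 h control and 2081 ± 26 CPM in 24 h control cells (SD, n = 4 each). The 15 mitochondrial genes without Lars2 summed to 391 ± 12 CPM in 24 h T3, 363 ± 7 in 6 h T3, 523 ± 5 in CHX plus T3, 539 ± 9 in CHX, 369 ± 2 in 6 h control and 370 ± 12 CPM in 24 h control cells. Without Lars2, the mitochondrial sum was higher in both CHX groups than in every other group, with no overlap. With Lars2 it was 647 ± 85 CPM in CHX plus T3, 623 ± 12 in CHX and 729 ± 376 CPM in 6 h control cells, and these groups overlapped.

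**Figure D1:**
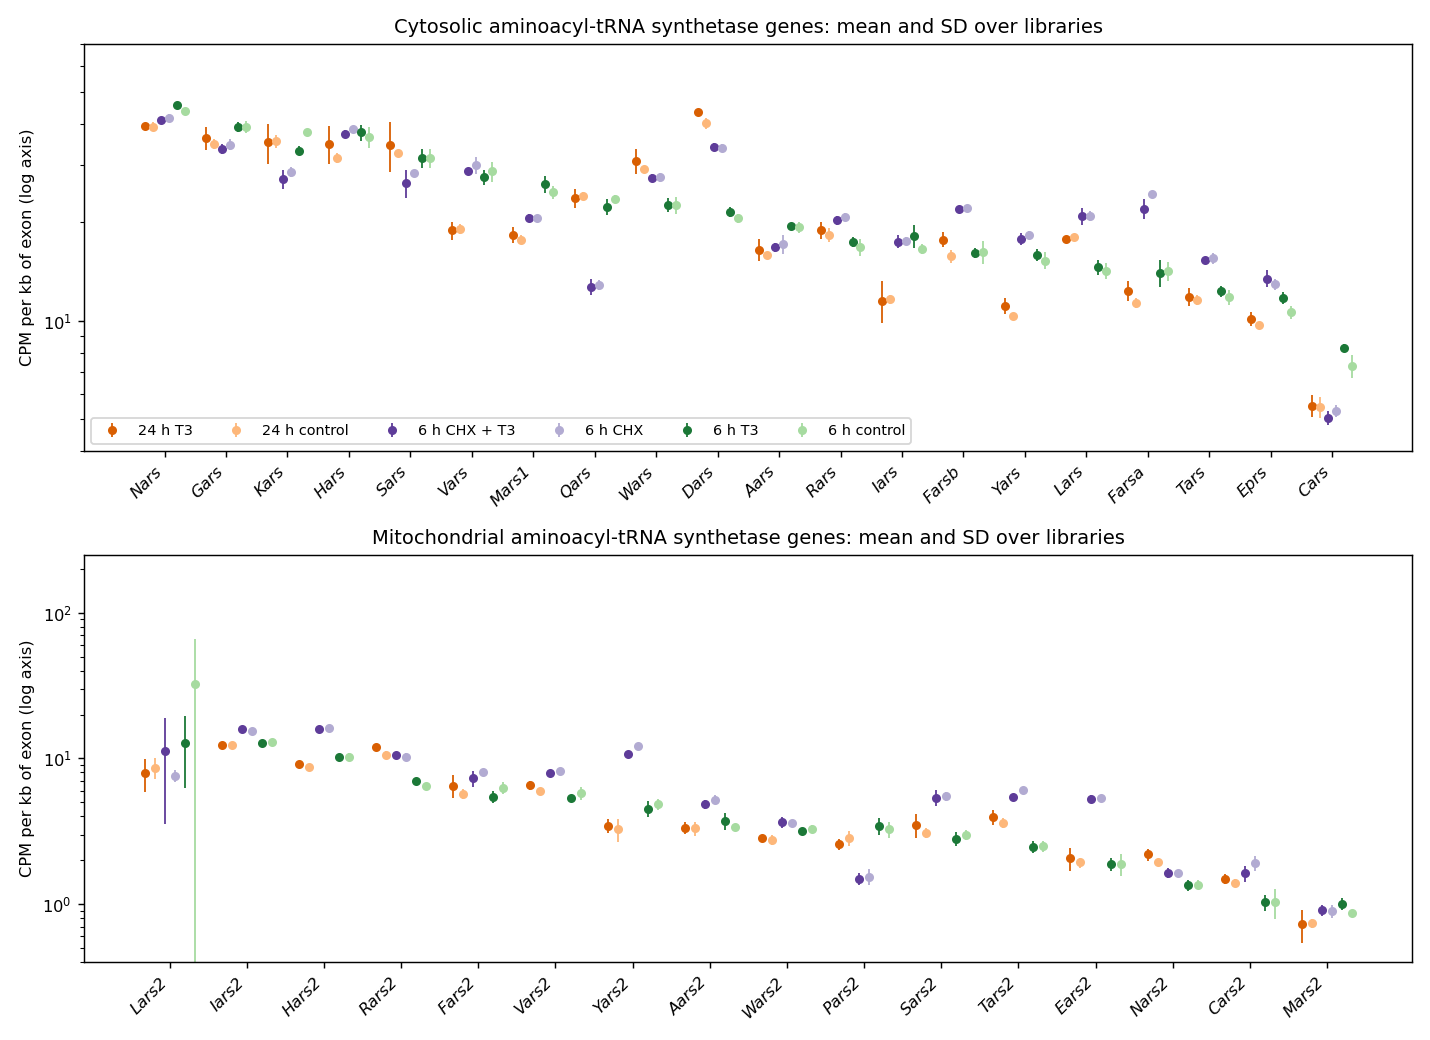
Mean level of each of the 36 genes in CPM per kilobase of exon, on a log axis, with the SD over 3 or 4 libraries as bars, for the 20 cytosolic genes (top) and the 16 mitochondrial genes (bottom), ordered by the 6 h control level. Most mitochondrial genes lie below the cytosolic ones, Dars leads at 24 h, and the wide bar of Lars2 in 6 h control cells reflects libraries from 111 to 916 CPM.

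Promoters were read for 27 of the 36 genes, 13 cytosolic and 14 mitochondrial, from 250 bases before to 50 after the RefSeq start (GRCm38.p6). Cars, Hars, Lars, Nars, Rars, Vars, Wars, Hars2 and Pars2 had no entry. The ATF4-type core TGATGCAA was found on either strand in 4 of 13 cytosolic genes (Iars, Tars and Yars among them) and in 0 of 14 mitochondrial genes, against 0.895% of 32851 promoters of the same length. The looser form TGATGNAAN, which contains that core, added Gars, making 5 of 13 cytosolic and 0 of 14 mitochondrial genes, against 3.95% of all promoters. The sites of 4 genes are printed so that the changes of these genes under CHX and with time can be read beside them. Capitals mark the match, which in all but Yars reads on the opposite strand (TTGCATCA being the reverse complement of the core), and each line runs 5′ to 3′ along the gene.
Gars: tggctgcgctATTTCATCAtgcaccgggc
Iars: cactgtcagtATTGCATCAcctccagacg
Tars: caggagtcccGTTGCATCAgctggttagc
Yars: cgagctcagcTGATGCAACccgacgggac
These lie at chr6:55037960-55037988 (plus strand), chr13:49682126-49682154 (plus), chr15:11399656-11399684 (minus) and chr4:129189896-129189924 (plus). The E box CACGTG, bound by MYC-type factors among others, was found in 4 cytosolic genes (Farsb, Iars and Tars among them) and 1 mitochondrial gene (Ears2), against 7.15% of all promoters. The thyroid hormone element DR4, AGGTCA repeated after any 4 bases, was found in no promoter of the 27 and in 0.0152% of all promoters. A match is a description of letters, and none of these sites was measured for binding.

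T3 called none of the 36 genes in any of the comparisons of T3 with its own control. At 6 h, 0 of 20 cytosolic and 0 of 16 mitochondrial genes passed an adjusted p of 0.05 (edgeR quasi-likelihood test, Benjamini-Hochberg over all genes), where 3.77% of all genes tested did (2.61% higher, 1.16% lower). At 24 h the counts were again 0 and 0, against 7.09% of all genes (4.41% higher, 2.68% lower). For T3 in the presence of CHX they were 0 and 0, against 1.29% (1.16% higher, 0.131% lower). At an unadjusted p under 0.05 there were 4 genes at 6 h, 3 at 24 h and 1 with CHX. DESeq2 called 1 gene at 6 h, Kars, and 0 in the other comparisons.

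The intervals give the sizes that these libraries leave room for. Leaving Lars2 aside, log2 changes under T3 at 6 h ran from −0.20 for Fars2 to 0.21 for Mars2, and the 95% intervals of the 35 genes reached from −0.40 to 0.45. At 24 h they ran from −0.15 for Pars2 to 0.18 for Rars2, with interval bounds from −0.41 to 0.42. With CHX they ran from −0.23 for Cars2 to 0.06 for Eprs, with bounds from −0.49 to 0.25. Every one of these bounds lies inside a 2-fold change. The median change at 6 h was 0.04 over the cytosolic genes and −0.01 over the mitochondrial genes, beside 0.00 over all genes tested. At 24 h the medians were 0.05 and 0.08, beside 0.00 over all genes, and with CHX −0.03 and −0.02, beside −0.01.

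Kars, the lysine enzyme of cytosol and mitochondria, came closest at 6 h. It had 141.8, 149.0, 153.6 and 146.8 CPM in T3 libraries, against 169.4, 166.2, 168.8 and 170.9 CPM in 6 h control libraries. All 4 T3 libraries lay below all 4 control libraries, which was so in 1 direction or the other for 4 of the 36 genes and for 11.5% of all genes. The log2 change was −0.19 ± 0.06 (SE) with an adjusted p of 0.0911. Kars passed the threshold with DESeq2 (adjusted p = 0.0309), with only the groups compared in the fit (0.0284), after removal of a length and GC trend (0.0397) and without 24 h T3 replicate 1 (0.0123). Over all alternatives its adjusted p ran from 0.00941 to 0.227. At 24 h, Kars had 182.0, 143.3 and 144.6 CPM in T3 libraries, against 163.2, 150.7, 163.9 and 153.0 CPM in control libraries, and the groups overlapped. The 182.0 CPM came from 24 h T3 replicate 1. Over all genes, its counts differed from replicates 2 and 3 by a chi-square of 28.5 and 35.85 per degree of freedom. Between replicates 2 and 3 the value was 2.618. Replicate 1 also had the highest share of alignments that were not unique, 42.3%. Without it, T3 at 24 h again called 0 cytosolic and 0 mitochondrial genes.

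The other genes at 6 h whose groups did not overlap were higher under T3 without passing the test. Cars had 52.1, 55.2, 55.1 and 55.4 CPM in T3 libraries, against 51.7, 45.1, 44.1 and 50.6 CPM in control libraries, a log2 difference of 0.19 ± 0.06 (adjusted p = 0.113). Eprs, the glutamate and proline enzyme, had 218.1, 203.3, 206.7 and 223.8 CPM in T3 libraries, against 184.4, 185.6, 195.7 and 202.4 CPM in control libraries, 0.15 ± 0.05 (adjusted p = 0.109). Rars2, the mitochondrial arginine enzyme, differed by 0.11 ± 0.06 (adjusted p = 0.353). At 24 h, Rars2 had the smallest adjusted p of the list. It had 33.3, 33.1 and 33.6 CPM in T3 libraries, against 28.2, 29.5, 32.1 and 28.0 CPM in control libraries, and every T3 library was above every control library. The difference was 0.18 ± 0.06 (adjusted p = 0.0803), and it passed without 24 h control replicate 3 (log2 change 0.22, adjusted p = 0.0287). Dars, Farsb, Yars and Vars2 were the other 4 genes whose groups did not overlap at 24 h, where 15.1% of all genes did not, and all 5 lay higher under T3. With CHX present, Farsa, Tars2 and Yars2 lay lower under T3 without overlap, 3 of 36 genes against 12.3% of all genes. That comparison sets lane 6 against CHX libraries of which 3 were on lane 5, so T3 and lane cannot be told apart in most of it.

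No gene's T3 effect was called different with and without CHX, or between 24 h and 6 h. The test with against without CHX called 1.22% of all genes (0.584% higher, 0.634% lower) and 0 of the 36, with 2 of them under an unadjusted p of 0.05, and the smallest adjusted p was 0.165 for Lars2. The test between times called 0.839% of all genes (0.541% higher, 0.298% lower) and 0 of the 36, with 3 under an unadjusted 0.05, and DESeq2 called 0 in both.

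**Figure D2:**
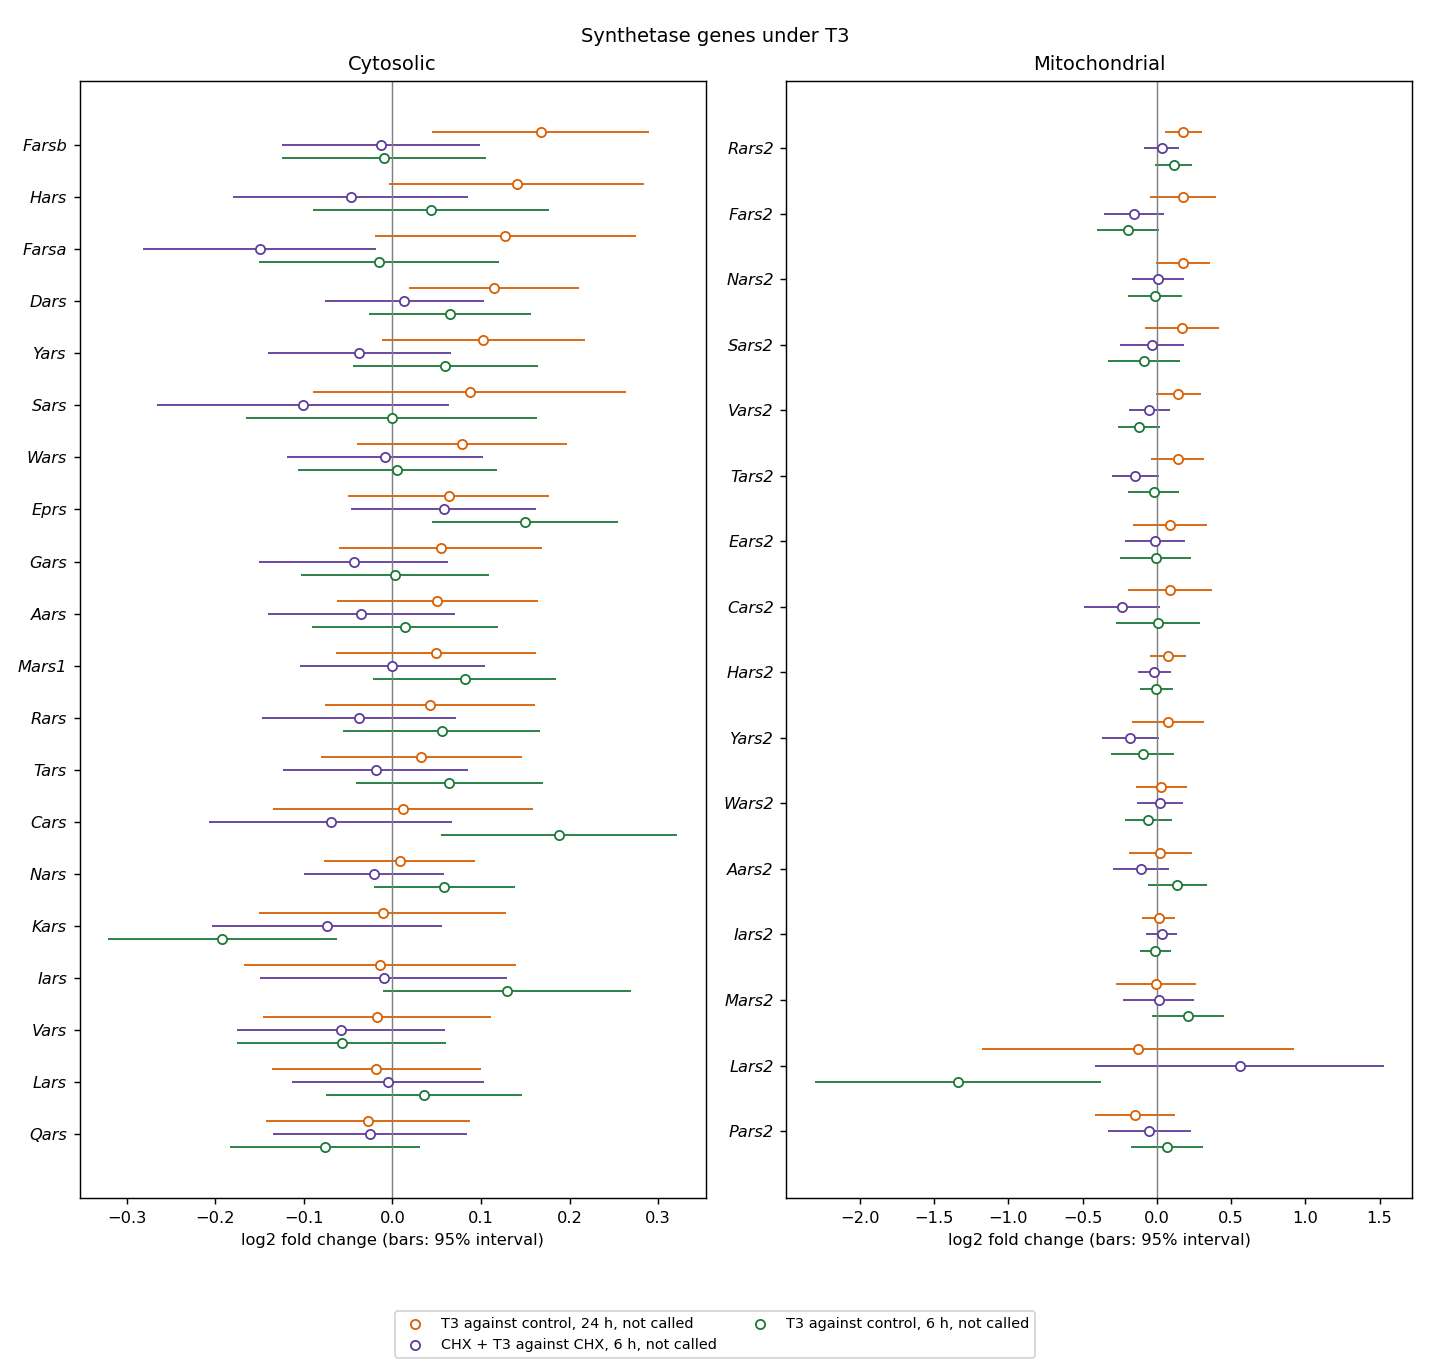
Log2 change of each gene under T3 at 24 h, under T3 with CHX at 6 h and under T3 at 6 h, with 95% intervals, cytosolic genes left and mitochondrial genes right, each panel with its own scale. All points are open, since none passed an adjusted p of 0.05, and all genes but Lars2 lie between −0.23 and 0.21.

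Of the genes around the synthetases, those called under T3 at 6 h and 24 h were mostly in the ATF4 and amino acid list, the longest list. With CHX present, T3 called no gene of these lists, where 1.29% of all genes were called. None of the 3 scaffold genes and none of the 10 genes of cytosolic tRNA handling and elongation was called at 6 h or 24 h. Of 27 genes of the ATF4 and amino acid response, 3 rose at 6 h, where 2.61% of all genes did: Stc2, a secreted glycoprotein (0.89), Nupr1, a stress-induced nuclear protein (0.52), and Cebpg, a partner of ATF4 (0.22). At 24 h, where 4.41% of all genes rose and 2.68% fell, 3 rose (Atf5 by 0.52, Chac1 by 0.64 and Stc2 by 0.65) and 3 fell: the amino acid transporters Slc7a11 (−0.68), Slc7a5 (−0.35) and Slc1a4 (−0.38). The list holds transporters, enzymes and transcription factors, and Atf4 itself was not called. Of 13 genes for mitochondrial tRNA handling and translation factors, 2 rose at 24 h, beside the same 4.41% of all genes. They were Qrsl1, a subunit of the enzyme that converts misloaded glutamate to glutamine on mitochondrial tRNA (0.33), and Trmu, which thiolates mitochondrial tRNAs (0.34). Of 18 tested genes of RNA polymerase III, which transcribes tRNA genes, 1 rose at 24 h (Polr3e, 0.18), again beside 4.41% of all genes.

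CHX changed most of the family, and the mitochondrial genes mostly rose. Against 6 h control, 12 of 16 mitochondrial genes rose and 2 fell, while 9 of 20 cytosolic genes rose and 6 fell. Over all genes, 37% rose and 30.6% fell (67.5% called). Against T3 alone, CHX plus T3 gave 13 rises and 1 fall among the mitochondrial genes and 9 rises and 8 falls among the cytosolic genes, beside 36.3% and 31% of all genes (67.3% called). After removal of a length and GC trend, mitochondrial calls were 10 higher and 3 lower without T3, and 11 and 2 with T3. Cytosolic calls were then 8 higher and 8 lower without T3, and 6 and 9 with T3. Over all genes, 5142 of 11239 calls were then higher without T3, and 5188 of 11103 with T3. The median log2 change was 0.56 and 0.08 for mitochondrial and cytosolic genes without T3, where all genes had 0.06. With T3 it was 0.49 and 0.02, where all genes had 0.04. CPM are shares of the reads, so with so much of the transcriptome moving a rise is a rise relative to other RNA, and in these bulk samples fewer cells of a type and less RNA per cell cannot be told apart.

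The comparisons with and without T3 share no library. In both, 28 of the 36 genes were called the same way, 21 higher and 7 lower, and none in opposite ways. Over all genes, 31.9% were called higher in both and 26.1% lower in both (58% the same way). Of the mitochondrial list, 12 genes rose and 1 fell in both, and of the cytosolic list 9 rose and 6 fell in both. Groups did not overlap for 30 of the 36 genes without T3 and 28 with T3, beside 62.7% and 63.6% of all genes. Changes of at least 2-fold were called for 5 mitochondrial and 0 cytosolic genes without T3, and for 4 and 0 with T3, beside 17.5% and 16.5% of all genes.

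Ears2, which loads glutamate in mitochondria, rose most. It had 28.2, 25.8, 27.8 and 28.2 CPM in CHX libraries, against 9.16, 11.8, 7.74 and 10.2 CPM in 6 h control libraries. It had 28.1, 26.8, 28.7 and 25.4 CPM in CHX plus T3 libraries, against 9.89, 10.6, 9.75 and 8.35 CPM in T3 libraries. No CHX library came near any library without CHX. The level was 2.83-fold higher without T3 (SE 0.11 on the log2 scale, adjusted p = 6.89e-12) and 2.82-fold higher with T3 (SE 0.11 on the log2 scale, adjusted p = 6.34e-12). Ears2 overlaps Ubfd1 on the other strand, and the kit used marks no strand, so reads of the overlap cannot be told apart. The same limit holds for other listed genes with an overlap on the other strand, among them Cars, Farsb, Yars, Cars2, Fars2, Iars2, Nars2 and Vars2. Aars overlaps Exosc6 on its own strand.

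Yars2 and Tars2, the tyrosine and threonine enzymes of mitochondria, also more than doubled. Yars2 had 35.38, 38.13, 39.69 and 40.04 CPM in CHX libraries, against 15.2, 13.8, 15.1 and 16.8 CPM in 6 h control libraries, a log2 change of 1.33 ± 0.10 (adjusted p = 1.18e-11). With T3 it had 32.1, 34.8, 34.6 and 33.7 CPM under CHX, against 15.3, 15.1, 11.5 and 14.8 CPM in T3 libraries, 1.25 ± 0.10 (adjusted p = 3.94e-11). Both times the groups stood well apart. Tars2 had 41.2, 41.2, 44.3 and 40.4 CPM in CHX libraries, against 17.9, 17.2, 19.0 and 15.2 CPM in 6 h control libraries, a change of 1.26 ± 0.08 (adjusted p = 7.99e-13). With T3 it had 37.2, 37.7, 38.2 and 37.9 CPM under CHX, against 16.6, 19.5, 16.5 and 15.9 CPM in T3 libraries, 1.14 ± 0.08 (adjusted p = 5.44e-12). All CHX libraries were again above all others.

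Hars2 had 70.3, 69.5, 68.7 and 68.2 CPM in CHX libraries, against 41.6, 42.3, 47.6 and 44.9 CPM in 6 h control libraries. With T3 it had 69.3, 65.9, 67.2 and 71.2 CPM under CHX, against 42.4, 44.1, 42.6 and 47.0 CPM in T3 libraries. Hars2 was higher under CHX in every library, by 0.65 ± 0.05 without T3 (adjusted p = 1e-10) and 0.64 ± 0.05 with T3 (adjusted p = 1.41e-10). Its cytosolic partner Hars lies head to head with it on chromosome 18, at 36766528 to 36783205 on the minus strand, and overlaps Hars2 (36783008 to 36792562, plus strand). Hars was not called in either comparison (0.07 ± 0.06 and −0.02 ± 0.06). The other rises of the mitochondrial list that were called in both comparisons ran down from Cars2 (0.90 and 0.66), Sars2 (0.87 and 0.93), Rars2 (0.68 and 0.60) and Aars2 (0.63 and 0.39) to Nars2 (0.26 and 0.28). Nars2 lost its call in both after removal of a length and GC trend (adjusted p = 0.469 and 0.269). Mars2 was called in neither comparison. Wars2 was called with T3 only, and lost that call in 9 of 34 alternatives, DESeq2 and RLE factors among them.

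Pars2, the mitochondrial proline enzyme, fell in both comparisons. It is outside the naming rule by its p-value and was chosen after its values were seen. It had 5.458, 4.685, 3.997 and 4.964 CPM in CHX libraries, against 10.2, 11.1, 8.32 and 10.9 CPM in 6 h control libraries. With T3 it had 4.18, 5.21, 4.70 and 4.37 CPM under CHX, against 9.33, 11.6, 12.2 and 9.39 CPM in T3 libraries. Pars2 fell below every library without CHX, to a fold of 0.475 without T3 (SE 0.13 on the log2 scale, adjusted p = 4.92e-08) and 0.436 with T3 (SE 0.13 on the log2 scale, adjusted p = 7.83e-09). These are 64 to 110 reads per CHX library with or without T3.

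**Figure D3:**
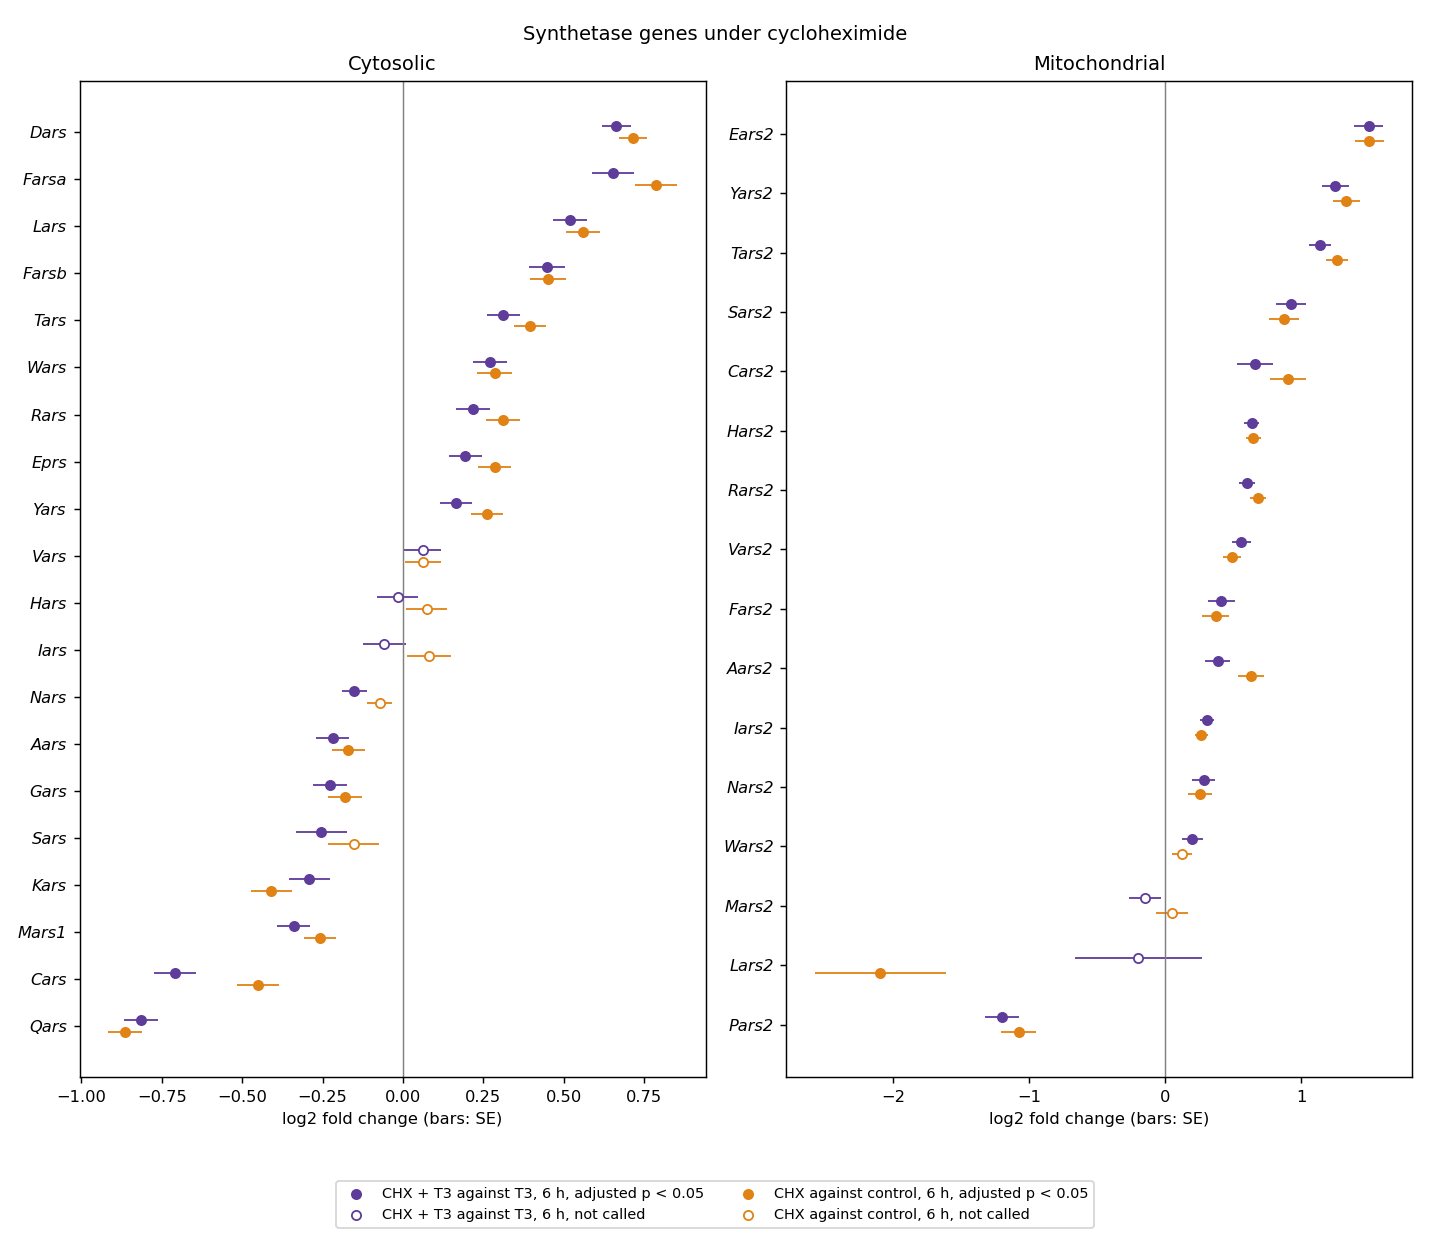
Log2 change of each gene under CHX plus T3 against T3 and under CHX against control, both at 6 h, with SE bars. Filled points passed an adjusted p of 0.05; cytosolic genes spread to both sides of 0, from Qars (−0.86) to Farsa (0.79), while most mitochondrial genes lie to the right of 0, with Pars2 and Lars2 to the left.

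In the cytosolic list the changes were smaller and went both ways. Qars, the glutamine enzyme of the complex, had 88.6, 85.1, 81.5 and 84.2 CPM in CHX libraries, against 153.0, 157.1, 148.9 and 159.1 CPM in 6 h control libraries. In the comparison with T3, it had 81.5, 87.1, 77.8 and 87.1 CPM under CHX, against 136.8, 154.5, 151.2 and 143.7 CPM in T3 libraries. Qars was lower in all 8 CHX libraries than in any other 6 h library, by −0.86 ± 0.05 without T3 (adjusted p = 3.29e-13) and −0.81 ± 0.05 with T3 (adjusted p = 1.15e-12). Mitochondria are not known to use a glutamine enzyme of their own: Ears2 loads glutamate, and the complex of Qrsl1, Gatb and Gatc amidates it. Under CHX, Qrsl1 rose by 0.65 and Gatb by 0.53, and Gatc changed by −0.20, all called.

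Dars, which loads aspartate, had 151.9, 145.6, 148.6 and 141.9 CPM in CHX libraries, against 93.5, 86.5, 89.3 and 88.8 CPM in 6 h control libraries. With T3 present, it had 149.1, 144.5, 146.0 and 154.0 CPM under CHX, against 90.3, 93.9, 92.3 and 98.0 CPM in T3 libraries. The CHX libraries were all higher, by 0.72 ± 0.04 (adjusted p = 4.13e-13) and 0.66 ± 0.04 (adjusted p = 1.67e-12). Lars, the leucine enzyme of the complex, had 112.9, 115.2, 115.2 and 106.5 CPM in CHX libraries, against 77.1, 70.2, 80.7 and 77.3 CPM in 6 h control libraries (0.56 ± 0.05, adjusted p = 1.35e-09). In the comparison with T3, it had 103.8, 110.4, 120.8 and 113.0 CPM under CHX, against 79.3, 72.9, 82.9 and 77.7 CPM in T3 libraries (0.52 ± 0.05, adjusted p = 5.05e-09). Here too the groups did not overlap.

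Farsa and Farsb encode the alpha and beta subunits of 1 enzyme, the cytosolic phenylalanine synthetase, and both rose. Farsa had 110.4, 112.8, 110.2 and 109.9 CPM in CHX libraries, against 70.5, 62.6, 60.7 and 62.9 CPM in 6 h control libraries (0.79 ± 0.07, adjusted p = 9.69e-11). With T3 present, it had 101.6, 99.5, 90.4 and 108.0 CPM under CHX, against 57.1, 70.6, 60.9 and 65.5 CPM in T3 libraries (0.65 ± 0.06, adjusted p = 2.85e-09). Farsb followed with smaller changes and no overlap. It had 57.8, 58.5, 58.9 and 57.0 CPM in CHX libraries, against 41.3, 42.1, 39.1 and 47.5 CPM in 6 h control libraries (0.45 ± 0.06, adjusted p = 9.33e-08). In the comparison with T3, it had 57.1, 56.8, 58.4 and 58.0 CPM under CHX, against 40.7, 42.5, 41.6 and 43.9 CPM in T3 libraries (0.45 ± 0.05, adjusted p = 1.02e-07). The log2 changes of the subunits were 0.79 and 0.45 without T3, and the difference between subunits was not tested.

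Tars, the threonine enzyme, rose by 0.40 ± 0.05 without T3 (adjusted p = 2.32e-07) and by 0.31 ± 0.05 with T3 (adjusted p = 7.67e-06). It had 90.6, 91.2, 96.1 and 88.1 CPM in CHX libraries, against 71.4, 69.2, 64.7 and 73.1 CPM in 6 h control libraries, with no overlap. Cars fell by 0.45 without T3 (SE 0.07, adjusted p = 1.54e-06). With T3 present, it had 34.7, 32.8, 31.3 and 34.5 CPM under CHX, against 52.1, 55.2, 55.1 and 55.4 CPM in T3 libraries, and every CHX library was lower (−0.71 ± 0.07, adjusted p = 8.19e-10). The remaining cytosolic genes called in both were Rars, Wars, Eprs and Yars, which rose by 0.31, 0.28, 0.29 and 0.26 without T3, and Kars, Mars1, Gars and Aars, at −0.41, −0.26, −0.18 and −0.17. Eprs is the exception to a stable direction: after removal of a length and GC trend its values were −0.00 and −0.15 (0.29 and 0.19 without that step). Aars and Gars lost their calls on library totals without scaling (adjusted p = 0.166 and 0.105). Mars1 overlaps Ddit3 on the other strand, which rose by 3.04 while Mars1 fell, and the strand of those reads cannot be told apart.

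Within the multisynthetase complex, 4 of the 8 enzymes rose (Dars, Lars, Rars and Eprs), 3 fell (Qars, Kars and Mars1), and Iars was not called, in both comparisons. Of its scaffold, Aimp1 fell by 1.97 without T3 (adjusted p = 1.01e-14) and by 1.82 with T3, and Eef1e1 rose by 0.46 and 0.44. Aimp2 was called lower with T3 (−0.46, adjusted p = 7.61e-04) and not without T3 (−0.10, adjusted p = 0.413). Over all genes, 37% rose and 30.6% fell without T3, and 36.3% and 31% with T3, so mixed directions are not particular to the complex. Removal of a length and GC trend took away the rise of Eprs (−0.00 and −0.15) and the call of Rars with T3. With lane as a covariate, Eprs and Kars lost their calls with T3. For 13 amino acids the list holds exactly 1 gene for each compartment. The mitochondrial gene had the higher log2 change in 11 of these 13 pairs in both comparisons, and the leucine and tryptophan pairs went the other way. Differences within pairs were not tested. With T3, Wars2 had 0.20 ± 0.08 and Wars 0.27 ± 0.05, and Lars2 had −0.20 ± 0.47. The median difference, mitochondrial minus cytosolic, was 0.43 without T3 and 0.50 with T3. Phenylalanine, glutamate and proline have no such simple pair. Fars2, the mitochondrial phenylalanine enzyme (0.37 and 0.41), had lower values than Farsa (0.79 and 0.65) and close to those of Farsb (0.45 and 0.45). These differences were not tested. Against Eprs (0.29 and 0.19), which serves glutamate and proline, Pars2 lay lower and Ears2 higher in both comparisons.

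The 4 genes whose sites are printed above did not share a direction under CHX. Tars (0.40) and Yars (0.26) rose, Gars (−0.18) fell, and Iars had 0.08 ± 0.07 without a call. Atf4 RNA itself rose by 3.14 (adjusted p = 9.18e-22) and Ddit3, its stress-induced partner, by 3.04, and 19 of the 27 genes of that list fell and 5 rose, beside 30.6% lower and 37% higher over all genes. The falls included the transporters Slc38a2 (−2.13) and Slc7a5 (−1.20), and Trib3 (−3.03), a pseudokinase that restrains ATF4. These are RNA levels under an inhibitor of translation, and no protein was measured.

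The rest of the machinery is read against 37% of all genes higher and 30.6% lower without T3, and 36.3% and 31% with T3. Of 13 genes for mitochondrial tRNA handling and translation factors, 9 rose and 3 fell without T3, and 8 and 3 with T3, led by Trmu (1.38) and Mto1 (1.16), which modify mitochondrial tRNAs. Their median change was 0.53 without T3, near that of the mitochondrial synthetases. Of 10 genes for cytosolic tRNA handling and elongation, 2 rose and 7 fell without T3, and 1 and 6 with T3, including Eef2, the factor that moves the ribosome (−0.73), and Xpot, which exports tRNA (−0.66). Of 18 genes of RNA polymerase III transcription, 13 rose and 3 fell without T3, and 11 and 3 with T3. Maf1, the repressor of this polymerase, fell by 1.37, and its largest subunit Polr3a rose by 1.04.

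Markers of cell types under CHX are read against 30.6% of all genes lower and 37% higher without T3, and 31% and 36.3% with T3. Astrocyte markers summed to 6902 to 8331 CPM in CHX libraries, against 8831 to 9511 CPM in 6 h control libraries, and 5 of 8 fell. Oligodendrocyte-lineage markers summed to 458 to 515 CPM in CHX libraries, against 768 to 885 CPM in control libraries, with 3 lower and 2 higher of 7 tested. Microglial sums were 15.4 to 20.9 CPM in CHX libraries, against 22.3 to 25.1 CPM in control libraries, and 2 of 6 fell. Neuronal sums were 124 to 149 CPM in CHX libraries, against 153 to 193 CPM in control libraries, and 1 of 6 fell. Vascular and meningeal sums were 173 to 319 CPM in CHX libraries, against 273 to 465 CPM in control libraries, and 2 of 5 tested fell. With T3, 5 astrocyte, 5 oligodendrocyte-lineage, 4 microglial, 2 neuronal and 2 vascular markers fell and 1 oligodendrocyte-lineage marker rose. The part of cell composition, and of the lower share of reads that were not unique, in the changes of the synthetases was not tested. The lane of sequencing is in part the same split as CHX: for CHX plus T3 against T3, lane and treatment cannot be told apart within the comparison, and a term for lane, estimated from the CHX libraries on both lanes, left 10 cytosolic calls in place of 17. Without CHX replicate 4, CHX against control lies within lane 5, and the counts stayed at 15 cytosolic and 14 mitochondrial genes.

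**Figure D4:**
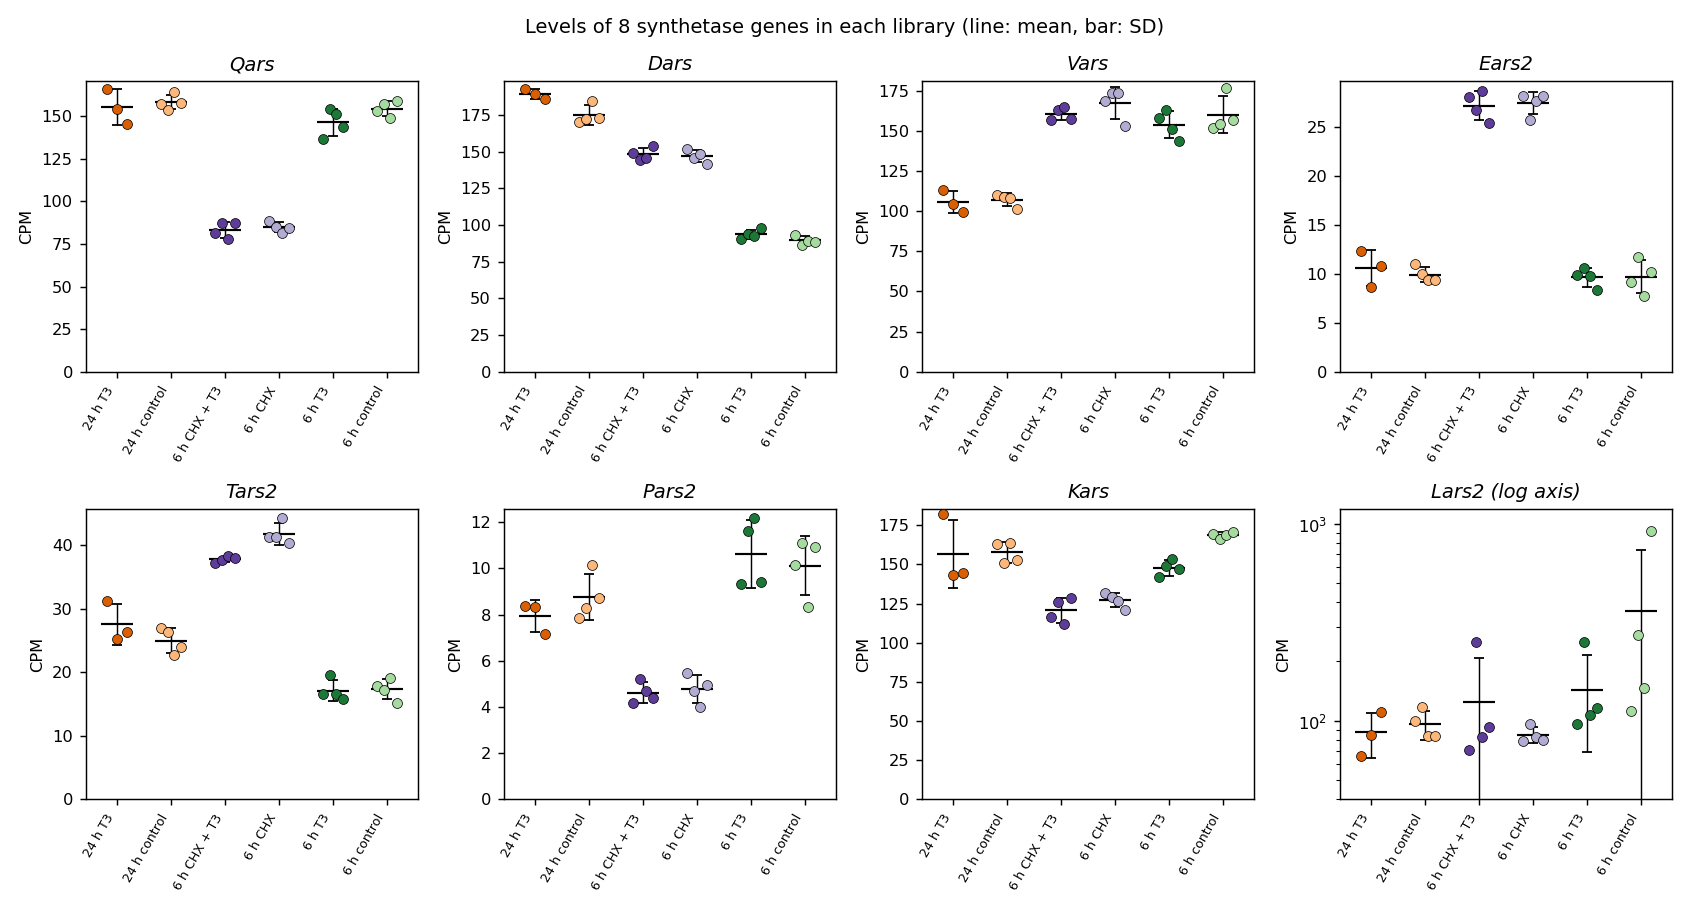
Level in CPM of 8 genes in each library, by group, with the mean as a line and the SD as a bar; the Lars2 panel has a log axis, on which the lower SD bars of 2 groups run off the plot. Qars and Pars2 are lowest in the CHX groups, Ears2 and Tars2 highest there, Dars and Vars separate by time, Kars is lower in 6 h T3 than in 6 h control libraries, and single Lars2 libraries stand far above their groups.

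Lars2, the mitochondrial leucine enzyme, had single libraries far above the rest of their groups. It had 96.1, 250.8, 106 and 116 CPM in 6 h T3 libraries, against 111, 271, 146 and 916 CPM in 6 h control libraries. It had 71.1, 250.6, 82.7 and 92.4 CPM in CHX plus T3 libraries, against 78.6, 95.9, 82.9 and 80.1 CPM in CHX libraries. At 24 h it had 66.3, 84.8 and 111 CPM in T3 libraries, against 99.1, 117, 83.3 and 83.5 CPM in control libraries. Replicate 4 of the 6 h control stood above every other library, and replicate 2 came next in that group. The highest library of the 6 h T3, CHX plus T3, CHX and 24 h control groups was replicate 2, and that of the 24 h T3 group replicate 3. The groups overlapped in both T3 comparisons at 6 h and at 24 h. In that replicate 4, 42.1% of alignments were not unique, against 37.3 to 39.2% in the other 6 h control libraries, and the part of this in its Lars2 level was not tested. The CHX change of −2.09 ± 0.48 (adjusted p = 4.72e-04) became −1.06 without replicate 4 (adjusted p = 0.0127), and with T3 it was −0.20 ± 0.47 (adjusted p = 0.722), or −0.79 without CHX plus T3 replicate 2 (adjusted p = 0.142). The T3 difference at 6 h was −1.34 ± 0.47 (adjusted p = 0.119), and −0.31 without replicate 4 (adjusted p = 0.767).

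Between the 24 h and 6 h controls, 63.9% of the 36 genes were called, near the 56.6% of all genes tested. Time and lane cannot be told apart here, since all 24 h controls were on lane 6 and all 6 h controls on lane 5. The 6 h controls also serve the comparisons of CHX and of T3 at 6 h with control. Of the cytosolic genes, 4 rose and 11 fell at 24 h against 6 h, and of the mitochondrial genes 4 rose and 4 fell, beside 28.2% higher and 28.4% lower over all genes (56.6% called). The median change was −0.14 for cytosolic and −0.05 for mitochondrial genes, and 0.00 over all genes. Groups did not overlap for 22 of the 36, beside 51.1% of all genes. A term for lane, estimated from 1 CHX library on lane 6 against 3 on lane 5, left 8 cytosolic and 4 mitochondrial calls. On library totals without scaling, which moved the median of all genes by 0.11, the cytosolic calls were 5 higher and 7 lower and the mitochondrial calls 4 and 2.

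Dars had the smallest adjusted p and the largest rise. It had 170.0, 172.2, 184.9 and 172.8 CPM in 24 h control libraries, against 93.5, 86.5, 89.3 and 88.8 CPM in 6 h control libraries, a log2 change of 0.97 ± 0.04 (adjusted p = 3.21e-14). Wars, the tryptophan enzyme, had 101.6, 101.8, 100.4 and 97.5 CPM at 24 h, against 76.2, 73.2, 77.3 and 84.2 CPM at 6 h (0.37 ± 0.05, adjusted p = 3.26e-06). Both were higher in every 24 h library, and Lars (0.34) and Rars (0.13) were the other cytosolic rises. Rars lost its call in 25 of 34 alternatives, and Eprs, which fell by 0.13, in 11.

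Vars, the valine enzyme, had 110.3, 108.7, 108.1 and 101.2 CPM in 24 h control libraries, against 152.2, 154.6, 177.0 and 157.1 CPM in 6 h control libraries (−0.58 ± 0.06, adjusted p = 8.25e-09). Yars, the tyrosine enzyme, had 60.3, 62.9, 60.5 and 62.6 CPM at 24 h, against 92.1, 90.6, 83.6 and 96.6 CPM at 6 h (−0.56 ± 0.05, adjusted p = 2.41e-09). Both fell with no overlap. Iars, the isoleucine enzyme, had 58.8, 62.1, 63.4 and 61.6 CPM at 24 h, against 87.4, 89.0, 90.3 and 83.5 CPM at 6 h (−0.51 ± 0.07, adjusted p = 1.01e-06). Mars1, the methionine enzyme, had 59.2, 63.5, 59.9 and 59.7 CPM at 24 h, against 87.0, 79.0, 85.0 and 86.9 CPM at 6 h (−0.48 ± 0.05, adjusted p = 2.49e-08). These groups were apart as well. Of the genes with a printed site, Yars, Iars and Gars (−0.17) fell and Tars had −0.03 ± 0.05 without a call.

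In the mitochondrial list Rars2 had 28.2, 29.5, 32.1 and 28.0 CPM in 24 h control libraries, against 17.9, 16.9, 17.9 and 18.4 CPM in 6 h control libraries (0.73 ± 0.06, adjusted p = 3.34e-10). Tars2 had 27.0, 26.3, 22.8 and 23.9 CPM at 24 h, against 17.9, 17.2, 19.0 and 15.2 CPM at 6 h (0.52 ± 0.08, adjusted p = 8.79e-06). Both rose with no overlap, as did Cars2, the cysteine enzyme (0.45). Nars2, the asparagine enzyme, had 12.7, 14.4, 13.6 and 13.5 CPM at 24 h, against 9.28, 9.48, 8.73 and 10.4 CPM at 6 h (0.52 ± 0.09, adjusted p = 1.78e-05). Yars2 fell: it had 9.94, 8.70, 9.52 and 12.8 CPM at 24 h, against 15.2, 13.8, 15.1 and 16.8 CPM at 6 h (−0.57 ± 0.11, adjusted p = 7.66e-05). Lars2 was called lower (−1.91 ± 0.48, adjusted p = 0.00152), with −0.88 without replicate 4 of the 6 h control (adjusted p = 0.0435). Both tyrosine enzymes, Yars and Yars2, were thus lower at 24 h in every library, while Rars2 and Tars2 were higher than at 6 h in every library. Of the 27 genes of the ATF4 and amino acid response, 18 fell at 24 h and 0 rose, beside 28.4% lower and 28.2% higher over all genes. Among the 18 were Slc38a2 (−2.12), Nupr1 (−1.87) and Vldlr (−1.33). In marker genes at 24 h, 3 of 6 microglial markers were higher and 0 lower, 4 of 6 neuronal markers higher and 1 lower, and 1 of 8 astrocyte markers higher and 3 lower. Of 7 oligodendrocyte-lineage markers tested 3 were higher and 2 lower, and of 5 vascular and meningeal markers tested 1 was higher and 2 lower. Microglial sums were 21.1 to 41.0 CPM at 24 h, against 22.3 to 25.1 CPM at 6 h, neuronal sums 127.5 to 172.3 CPM, against 153.0 to 193.4 CPM, and astrocyte sums 8111 to 9793 CPM, against 8831 to 9511 CPM. The part of these in the changes above was not tested.

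**Figure D5:**
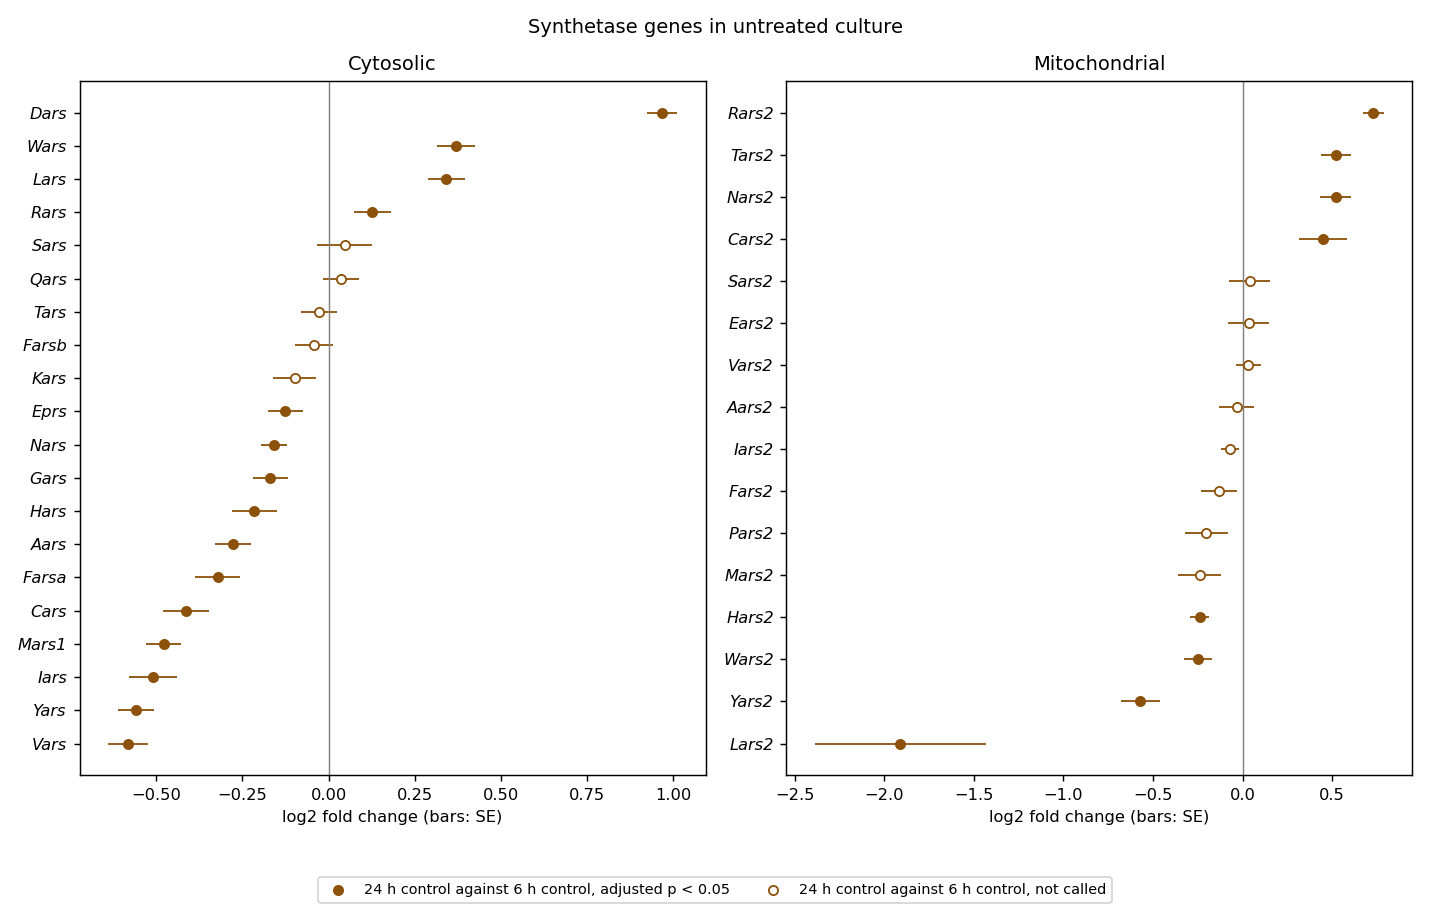
Log2 change of each gene in 24 h control against 6 h control cells, with SE bars, cytosolic genes left and mitochondrial genes right, on separate scales. Filled points passed an adjusted p of 0.05; Dars (0.97) and Rars2 (0.73) are the highest, and Lars2 (−1.91) has the widest bar and was −0.88 without replicate 4 of the 6 h control.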

How the data were processed

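RNA was sequenced as single reads of 50 nt from libraries made with 200 ng of RNA by a kit that does not mark strand, per the labels' protocols. Per the submitters' processing notes, tools named are bcl2fastq, FastQC, Bowtie, TopHat, HTSeq and edgeR, with build GRCm38. Not given in the sources used here were versions, counting mode, strand setting and annotation release. The authors deposited raw counts of reads per Ensembl gene, 1 file per library, used as deposited. The 5 closing lines that name no gene stayed out; reads without a feature made up 3.75 to 5.81% per library. Symbols, GRCm38 coordinates and exon lengths came from GENCODE release M21, where 36345 of 38293 identifiers were found, and of 72 listed pathway genes 71 were found.

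Libraries were grouped by title. No label says that replicates came from separate cultures, so the spread behind each p-value is that among these libraries and may be only technical. edgeR 4.0.16 (R 4.3.3) kept genes with filterByExpr (minimum count 10), scaled by TMM and fitted 1 mean per group to all 23 libraries (17 residual degrees of freedom). The quasi-likelihood F test was adjusted by Benjamini-Hochberg over 16087 genes and called at 0.05. SE was taken as |log2 change| / √F. CPM use TMM-scaled sizes. The test was checked on simulated counts. Alternatives were RLE factors, library totals, DESeq2 1.42.0, no filter, replicate blocks, lane, only the groups compared, a length and GC trend fitted with mgcv 1.9.3 and passed to edgeR, 2 pairs of libraries left out, and each library left out.

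The rule for named genes took all 36 members, with values per library for up to 6 cytosolic and 4 mitochondrial called genes per comparison by smallest adjusted p, and up to 4 genes per pathway list. Outside that limit, values per library are also given for Kars, Eprs, Lars2 and Pars2, and single libraries for the flagged results. The ATF4 list has more than 4 named genes for T3 at 24 h and under CHX. The list of mitochondrial tRNA handling and translation factors has more than 4 under CHX. Members and lists were chosen with earlier results of these data known. The promoter sequence of 1 further gene is not reported here.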

Additional observations from a re-analysis of the deposited data

Results flagged for a closer look

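In each group of 4 libraries, the highest or lowest library was set against the others by Dixon's ratio, which chance alone passes in about 1 in 20 groups. Of 180 gene and group combinations examined, 10 passed, near the 1 in 20 that chance alone passes. A pass by itself therefore does not mark a library as unusual. The 24 h T3 group, with 3 libraries, was not examined. Lars2 in 6 h control libraries, at 111 to 916 CPM, was not among the 10. Lars2 had 250.8 CPM in 6 h T3 replicate 2 (others 96.1 to 116 CPM) and 250.6 CPM in CHX plus T3 replicate 2 (others 71.1 to 92.4 CPM). In 6 h T3 libraries, Yars had 100.3 CPM in replicate 2 (others 92.0 to 93.3), Yars2 11.5 CPM in replicate 3 (others 14.8 to 15.3), Wars2 20.5 CPM in replicate 4 (others 18.1 to 18.4) and Cars 52.1 CPM in replicate 1 (others 55.1 to 55.4). In CHX plus T3 replicate 3, Eprs had 265.5 CPM (others 233.6 to 238.0) and Sars, the serine enzyme, 115.8 CPM (others 140.3 to 145.0). In 24 h control libraries, Farsa had 54.0 CPM in replicate 3 (others 50.3 to 50.9) and Mars1 63.5 CPM in replicate 2 (others 59.2 to 59.9). The causes were not tested.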

How the results depend on the processing

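Of the 83 member changes called under CHX or with time, 57 kept their direction and their call in all 34 alternatives and 26 lost the call or the direction in at least 1. Eprs turned under removal of a length and GC trend, to -0.00228 for CHX without T3 and -0.152 for CHX with T3. T3 at 6 h called 1 cytosolic gene (Kars) with DESeq2, in a fit of only the groups compared, after removal of that trend, and in a fit lacking both 24 h T3 replicate 1 and CHX replicate 4, and 1 mitochondrial gene (Lars2) with no filter on low counts. With lane as a covariate, calls were 10 cytosolic for CHX with T3 (17 without it) and 8 cytosolic and 4 mitochondrial for 24 h against 6 h (15 and 8). Leaving out each library in turn gave 0 to 1 cytosolic (1 without 24 h T3 replicate 1) and 0 to 1 mitochondrial genes for T3 at 6 h (1, Lars2, without 6 h control replicate 1 or 6 h T3 replicate 2) and 0 to 1 mitochondrial for T3 at 24 h (Rars2); under CHX without T3 it gave 15 to 17 cytosolic and 14 mitochondrial, with T3 17 and 13 to 14, and for time 13 to 15 and 8 to 9. The replicate block by title number left 15 cytosolic and 14 mitochondrial calls for CHX without T3 and 17 cytosolic for CHX with T3; Rars with time was the call it ended. Deviations from group means, set side by side for same-numbered libraries, correlated at -0.0882 to 0.131. Whether the numbers mark a shared culture or litter cannot be told from these values. For 24 h against 6 h, all genes split 4538 higher of 9105 called, against 5748 of 8924 on library totals and 3932 of 10070 without the length and GC trend. Pars2 rested on 64 to 110 counts per CHX library and kept its calls in all 34 alternatives. Over all comparisons and alternatives, the median change of a list moved by more than the SD of library medians within groups in 21 cases. It did not in 523.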
